A study of Mus musculus with 6 samples.

Results

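The genes described here are 10 members of the inward rectifier potassium channel family, Kcnj2, Kcnj3, Kcnj4, Kcnj6, Kcnj8, Kcnj10, Kcnj11, Kcnj12, Kcnj13 and Kcnj16. They were taken by gene symbol from the 24411 genes counted in cochlear sensory epithelium of mice that overexpress 1 of them, Kcnj2. The question was whether the other inward rectifiers of the tissue differed between genotypes when Kir2.1, the product of Kcnj2, was forced on. In Kir2.1-OE mice, an Otof-rtTA allele and a tetO-Kir2.1-IRES-tau-lacZ allele, both heterozygous, switch on Kir2.1 in the presence of doxycycline (DOX). The control mice were littermates with the heterozygous Otof-rtTA allele and no Kir2.1 transgene. DOX reached both groups through the mothers, which had it at 0.5 mg/ml in their drinking water from conception and while breast-feeding. Otof is a hair cell gene used mainly by inner hair cells (IHCs), so the transgene is aimed at IHCs within a tissue that holds many other cells. RNA was sequenced at P9 from 3 pools per group, each of 8 cochleae from 4 mice of either sex, so a pool is the replicate. Between 35430940 and 41205047 reads were assigned to genes in each library. All 5 IHC markers and all 9 markers shared by hair cells passed the filter on low counts, and markers of neurons, glia and fibrocytes were present as well. Of the members, 9 passed that filter along with 15303 genes in all, and Kcnj6 did not.

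Inward rectifiers pass potassium ions into a cell more readily than out of it and thereby hold the resting potential near the potassium equilibrium. The Kir2 channels (Kcnj2, Kcnj12, Kcnj4) rectify strongly and set the resting potential of excitable cells. Kir4.1 and Kir5.1 (Kcnj10, Kcnj16), which assemble with each other, and Kir7.1 (Kcnj13) serve potassium transport in glia and epithelia, and Kir4.1 of the stria vascularis is needed for the endocochlear potential. The Kir6 channels (Kcnj8, Kcnj11) combine with sulfonylurea receptors into channels closed by ATP, and the Kir3 channels (Kcnj3, Kcnj6) are opened by G proteins.

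All members share a pore with a potassium selectivity filter. For Kcnj2 and 5 other members, the stretch of coding sequence that encodes it is shown because it marks what the genes have in common and how far Kcnj2 differs from its relatives. The sequences are those of the longest coding transcript in the GENCODE vM21 annotation of mm10, the genome build of the files, and are written on the coding strand. Capitals mark the codons of the filter, glycine-tyrosine-glycine, or glycine-phenylalanine-glycine in Kcnj8 and Kcnj11.
Kcnj2, chr11:111072201-111072233, plus strand: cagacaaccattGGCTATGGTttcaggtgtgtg
Kcnj13, chr1:87389009-87389041, minus strand: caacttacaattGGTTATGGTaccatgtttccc
Kcnj8, chr6:142566436-142566468, minus strand: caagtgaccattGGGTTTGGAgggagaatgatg
Kcnj11, chr7:46099484-46099516, minus strand: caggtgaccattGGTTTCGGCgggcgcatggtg
Kcnj3, chr2:55437621-55437653, plus strand: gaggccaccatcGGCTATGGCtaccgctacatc
Kcnj6, chr16:94832765-94832797, minus strand: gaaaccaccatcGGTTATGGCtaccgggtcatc

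Over these 33 bases, Kcnj3 differed from Kcnj2 at 12, Kcnj6 and Kcnj13 each at 13, and Kcnj8 and Kcnj11 each at 15. Over the whole coding sequence, identity to Kcnj2 was 71.5% for Kcnj12, 69.1% for Kcnj4 and between 55.8% and 60.3% for the other members. The longest Kcnj2 transcript holds 5393 stretches of 31 bases, of which 0 occur in Kcnj12 or Kcnj4 and 4 occur in Kcnj10, so nearly all of its sequence is distinct from that of every other member. In counts per gene, the reads of a transgene made from the Kcnj2 coding sequence cannot be told from those of the gene itself, and the Kcnj2 count is the sum of both. The coding sequence is 1284 nt of the 5444 nt transcript, and the counts do not show from which part a read came.

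Of the 9 members tested, 3 rose in Kir2.1-OE libraries and 0 fell, with Kcnj2 by far the most changed and Kcnj10 and Kcnj12 as the others. The background was 15.5% of all tested genes called higher and 5.08% called lower, at a fold change above 1.5 and an adjusted p under 0.05. Each adjusted p given here is that of the quasi-likelihood test of edgeR after Benjamini-Hochberg adjustment over all tested genes. Without Kcnj2, to which the transgene adds its own reads, 2 of 8 members were called higher, or 25.0%. The median log2 fold change was 0.58 over the 9 members and 0.49 without Kcnj2, beside 0.01 over all genes tested. The normalized counts, which are counts scaled for library size, did not overlap between the groups in 7 of the 9. They lay higher in all 3 Kir2.1-OE libraries for 6 members and lower for Kcnj13, in a table where 31.7% of genes had all 3 Kir2.1-OE values above the controls and 29.9% had them below.

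**Figure D1:**
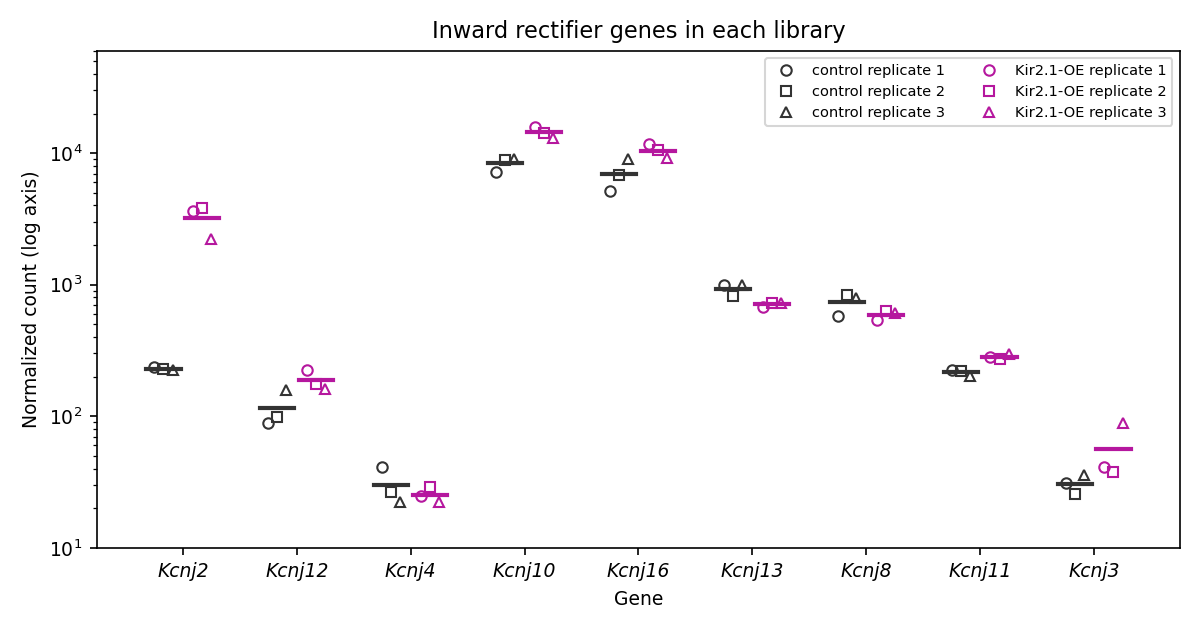
Normalized counts (log axis) of the 9 tested inward rectifier genes in each library, with controls in black and Kir2.1-OE in magenta, a symbol for each replicate and a bar at the group mean. Kcnj2 stands at 226.0 to 235.8 in controls and 2213 to 3813 in Kir2.1-OE libraries, whereas the 2 most abundant genes, Kcnj10 and Kcnj16, differ between groups by less than 2-fold in their means.

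Levels differed widely between members. Per kilobase of the longest transcript, the control libraries held most Kcnj16 (1886 ± 518 normalized counts per kilobase, SD, n = 3) and Kcnj10 (1543 ± 193), whose ranges overlapped. Kcnj13 (736.1 ± 79.8), Kcnj8 (288.8 ± 55.3) and Kcnj11 (68.6 ± 3.65) followed in that order without overlap. Kcnj12 (46.6 ± 15.3) and Kcnj2 (42.2 ± 0.947) overlapped, and Kcnj4 (13.9 ± 4.59), Kcnj3 (5.89 ± 0.979) and Kcnj6 (0.268 ± 0.277) were lowest. The order of the other 9 members by their means was the same in Kir2.1-OE libraries, while Kcnj2, at 590.2 ± 160.1 per kilobase, moved from rank 7 to rank 3 and overlapped Kcnj13 at 557.9 ± 19.2. Kcnj12 overlapped Kcnj11, and Kcnj3 overlapped Kcnj4, in Kir2.1-OE libraries. Kcnj2 made up 0.912% of the members' summed level per kilobase in controls and 8.35% in Kir2.1-OE libraries. The length of the transgene's transcript is not given in the sources used here, so the level per kilobase of Kcnj2 in Kir2.1-OE libraries assumes the length of the gene's own transcript. As these are bulk samples, fewer cells of a type and less RNA per cell cannot be told apart.

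Kcnj2 (ENSMUSG00000041695.2, chromosome 11, 111066164 to 111076821) encodes Kir2.1, the channel that was overexpressed, and has its whole coding sequence in 1 of 2 exons. Its normalized count was 3612, 3813 and 2213 in the 3 Kir2.1-OE libraries, given in the order of their replicate numbers here and for the genes that follow, and 235.8, 228.1 and 226.0 in the controls. The groups were far apart, and Kir2.1-OE replicate 3 held the least of its group. This was a log2 difference of 3.80 (standard error, SE, 0.199, edgeR adjusted p = 7.04e-05), a 14.0-fold difference with a 95% interval of 10.3 to 19.0.

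Otof, the gene whose promoter drives the rtTA in both genotypes, was set beside Kcnj2 in each library. Its normalized count was 4089, 3978 and 3293 in the Kir2.1-OE libraries and 2428, 2519 and 1749 in the controls, again lowest in replicate 3 of each group. The Kcnj2 count per Otof count was 0.883, 0.959 and 0.672 in the Kir2.1-OE libraries against 0.0971, 0.0905 and 0.129 in the controls. The groups did not overlap, and the means of 0.838 and 0.106 corresponded to a 7.94-fold difference on the log scale (two-sided exact permutation test over the 6 pools, p = 0.1, which is the lowest value this design can give). Per Otof count, Kir2.1-OE replicate 3 still held the least Kcnj2 of its group. On the log2 scale Otof differed by 0.76 between the groups, and by 0.02 once transcript length and GC content entered the model as offsets, while Kcnj2 differed by 3.76 with these offsets. Of the 5 IHC markers 2 were called higher, Otof among them, and of the 9 markers shared by hair cells 1, with 0 lower in both, beside 15.5% and 5.08% of all genes. With the offsets these counts were 1 and 0, beside 8.19%.

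**Figure D2:**
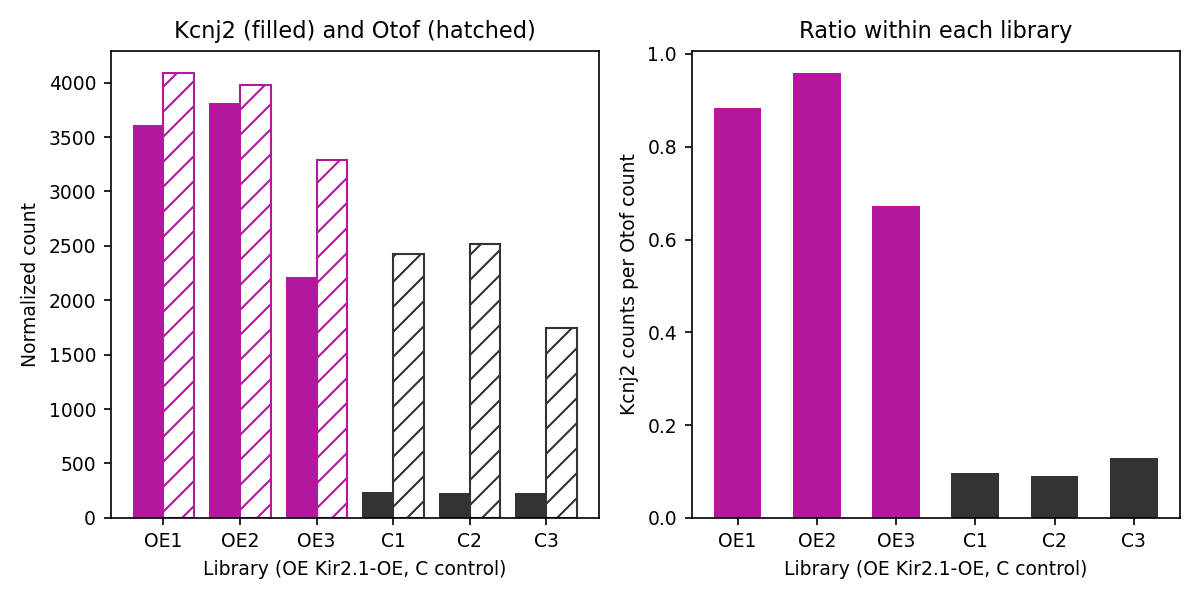
Left, normalized counts of Kcnj2 (filled bars) and Otof (hatched bars) in each of the 6 libraries; right, Kcnj2 counts per Otof count in the same libraries, with Kir2.1-OE in magenta and controls in black. The ratio lies between 0.672 and 0.959 in Kir2.1-OE libraries and between 0.0905 and 0.129 in controls.

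Among the 3 genes whose log2 levels were most like those of Kcnj2 over the 6 libraries, out of 13644 genes whose normalized counts averaged at least 50, were Cacna1e (r = 0.9994) and Fndc1 (r = 0.9986). Cacna1e encodes an R-type calcium channel and Fndc1 an extracellular protein. The likeness describes 2 groups of libraries that lie apart, and a gene that differs between genotypes with little spread scores high by construction. Cacna1e stood at 398.2, 397.7 and 329.0 in Kir2.1-OE libraries and 124.4, 126.3 and 129.3 in controls, so that it shared with Kcnj2 the lower value in Kir2.1-OE replicate 3.

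Kcnj12 (chromosome 11, 61022564 to 61071131), which encodes Kir2.2 and is the closest relative of Kcnj2 by coding sequence, rose in Kir2.1-OE libraries, though not by a margin that each subset of libraries kept. Its normalized count was 224.8, 174.9 and 161.9 in Kir2.1-OE libraries and 88.3, 98.1 and 157.8 in controls. The groups did not overlap, but Kir2.1-OE replicate 3 and control replicate 3 were within 5 counts of each other. Kcnj12 changed by 0.71 on the log2 scale (SE 0.242, edgeR adjusted p = 0.0344), with a 95% interval of the fold from 1.12 to 2.38. The call was lost without Kir2.1-OE replicate 1 (log2 fold change 0.54), Kir2.1-OE replicate 2 (0.73), control replicate 1 (0.55) or control replicate 2 (0.61), and it was lost with upper quartile scaling (edgeR adjusted p = 0.0523).

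Kcnj4 (chromosome 15, 79483714 to 79505241), which encodes Kir2.3, was near the lower end of what was tested. It had 24.6, 29.0 and 22.2 normalized counts in Kir2.1-OE libraries and 41.1, 26.4 and 22.4 in controls. The groups overlapped, and the high value was that of control replicate 1 alone. Its log2 fold change was -0.24 (edgeR adjusted p = 0.567), and the 95% interval of the fold, 0.508 to 1.41, leaves room for a change in either direction. Without control replicate 1 it was 0.050.

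Kcnj10 (chromosome 1, 172341210 to 172374085) encodes Kir4.1 and had the lowest adjusted p of the members after Kcnj2. It had 15901, 14295 and 13142 normalized counts in Kir2.1-OE libraries and 7146, 8795 and 9083 in controls. Every Kir2.1-OE library lay well above every control, and the gap between the groups was wider than the range within either. Kcnj10 changed by 0.79 on the log2 scale (SE 0.108, edgeR adjusted p = 4.55e-04), a fold of 1.73 with a 95% interval of 1.46 to 2.05. The call was kept in 6 of 6 fits that each left out 1 library. With the length and GC offsets the log2 fold change was 0.49 (edgeR adjusted p = 0.00576), below the fold threshold, beside 8.19% of genes called higher in that model.

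Kcnj16 (chromosome 11, 110968033 to 111027968) encodes Kir5.1 and lies 38195 bp from Kcnj2, its neighbour on the same strand. It had 11724, 10493 and 9175 normalized counts in Kir2.1-OE libraries and 5128, 6857 and 8952 in controls. The groups did not overlap, but control replicate 3 came close to Kir2.1-OE replicate 3, and control replicate 1 was the lowest of all. The groups differed by 0.58 on the log2 scale (SE 0.177, edgeR adjusted p = 0.0205), just below the threshold of a 1.5-fold change. It passed that threshold, and was called, without Kir2.1-OE replicate 3 (0.66), without control replicate 3 (0.80) and with the length and GC offsets (0.73). The value was 0.40 without control replicate 1, and the edgeR adjusted p was above 0.05 without Kir2.1-OE replicate 1 (0.48, adjusted p = 0.0967), Kir2.1-OE replicate 2 (0.56, adjusted p = 0.0523) or control replicate 2 (0.57, adjusted p = 0.0525). Sox9, the coding neighbour of Kcnj2 on the other side at 1705402 bp, had 6164 and 4024 normalized counts and was called higher, at 0.62 in log2 fold (edgeR adjusted p = 2.76e-04).

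The levels of Kcnj10 and Kcnj16 were set beside those of the cell types that are known to use them. Of 6 fibrocyte markers, 3 were called higher and 0 lower, beside 15.5% and 5.08% of all genes, and 2 were called higher with the offsets, beside 8.19%. Their summed normalized count was between 325806 and 445229 in Kir2.1-OE libraries and between 219379 and 366343 in controls, with none at 0. The fibrocyte marker Coch had 106787, 121015 and 93825 normalized counts in Kir2.1-OE libraries and 49687, 66561 and 91331 in controls, so that, as for Kcnj16, control replicate 1 was lowest and control replicate 3 came near Kir2.1-OE replicate 3. Otos, the first marker of the same list, overlapped between the groups, with a log2 fold change of -0.17. Of 7 glial markers, 1 was called higher and 1 lower (Fabp7, a fatty acid binding protein that supporting cells also use). The summed count of these 7 was between 392806 and 496136 in Kir2.1-OE libraries, against 285865 to 372432 in controls. Of 5 tested markers of the pigmented melanocytes, to which the intermediate cells of the stria belong, 1 was called higher and 2 lower, with sums over the list of 1153 to 1244 in Kir2.1-OE libraries against 1397 to 1521 in controls and with Mlana at 0 in a library. Of 8 supporting cell markers, 2 were called higher and 1 lower, and their sums overlapped between the groups. Of 5 root and spindle cell markers, 0 were called higher and 1 lower, with and without the offsets. Their summed count was lower in Kir2.1-OE libraries, at 129705 to 135752 against 167157.5 to 171793 in controls. Most of that sum was Epyc, with means of 128621 and 162545. The part of these cell types in the levels of Kcnj10 and Kcnj16 was not tested.

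Kcnj13 (chromosome 1, 87386363 to 87394729), which encodes the epithelial channel Kir7.1, was the member with lower values in every Kir2.1-OE library. It had 680.5, 720.5 and 724.6 normalized counts in Kir2.1-OE libraries and 995.2, 817.8 and 991.4 in controls, without overlap. The difference was -0.40 on the log2 scale (SE 0.0980, edgeR adjusted p = 0.00795), a fold of 0.758 that did not reach the threshold. Under the length and GC offsets the difference was 0.058, on the other side of 0. Kcnj13 overlaps Gigyf2 on the opposite strand, where the exons of both share 623 bp, while the longest Kcnj13 transcript measures 1270 nt. The strand setting of the counting is not given in the sources used here, so reads of the shared stretch cannot be told apart. Gigyf2 itself had 2499.7 normalized counts in Kir2.1-OE libraries and 1257 in controls. The melanocyte markers did not move together: of the 5 tested, Dct (log2 fold change -1.81) and Tyr (-2.07) were called lower and Mitf (0.64) higher, while Pmel (-0.48) and Tyrp1 (0.13) were not called, beside 5.08% and 15.5% of all genes called lower and higher. With the offsets Dct was at -1.60, where Kcnj13 was at 0.058, and the part of these cells in the Kcnj13 value was not tested.

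**Figure D3:**
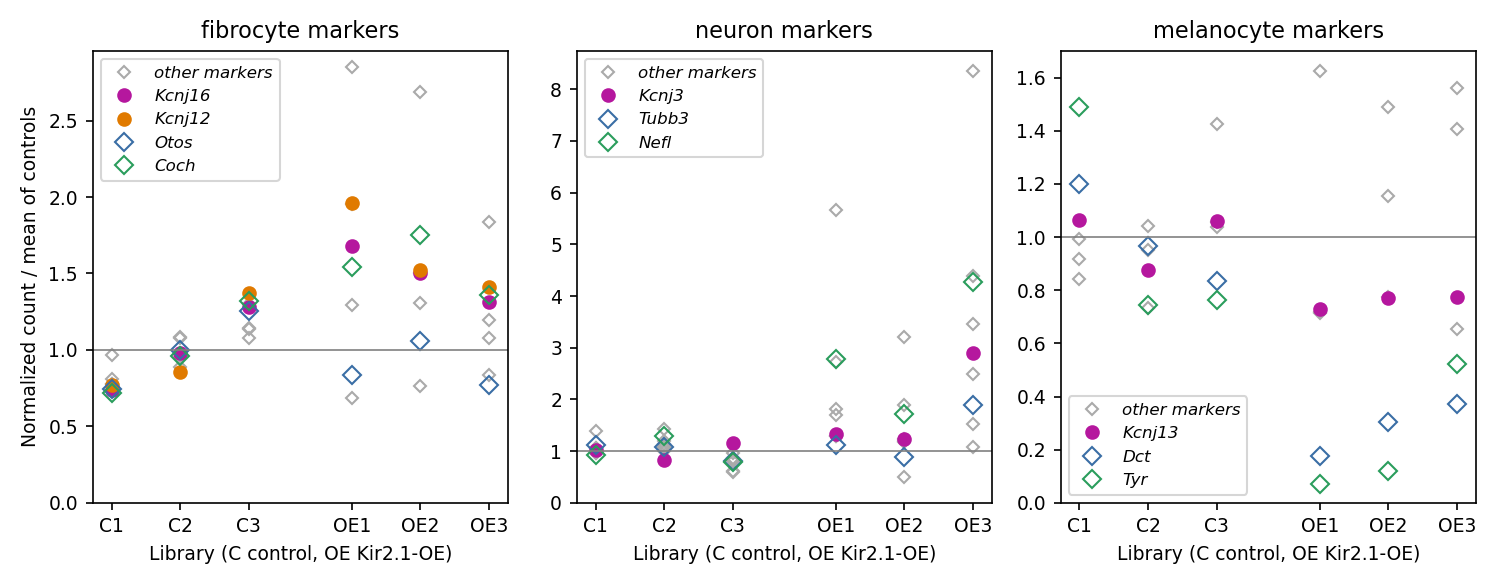
Normalized counts of member genes (filled circles) and of every tested marker of 3 cell type lists (open diamonds, 2 of each list in colour and the rest in grey) in each library, divided by the gene's mean over the 3 controls, on a linear axis from 0. Coch shares with Kcnj16 and Kcnj12 the low control replicate 1 and the high control replicate 3, Nefl is highest in Kir2.1-OE replicate 3 as Kcnj3 is, and of the melanocyte markers Dct and Tyr are lower in all Kir2.1-OE libraries, as Kcnj13 is, while Mitf, in grey, is higher and Tyrp1 overlaps. The coloured markers are the first 2 of each list.

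Kcnj8 and Kcnj11, the pores of the channels closed by ATP, were measured with their sulfonylurea receptor partners, which lie next to them on the same chromosomes. Kcnj8 (Kir6.1, chromosome 6, 142564837 to 142571614) had 539.9, 626.6 and 608.3 normalized counts in Kir2.1-OE libraries and 574.9, 836.9 and 796.0 in controls. The groups overlapped through control replicate 1. Its log2 fold change was -0.32 (edgeR adjusted p = 0.0891), with a 95% interval of the fold from 0.645 to 1.00. Its partner in blood vessels, Abcc9 (the SUR2 receptor), lies 16247 bp away and had means of 2210.4 and 1570.5. These did not reach the 1.5-fold threshold and differ by 0.49 in log2 (edgeR adjusted p = 0.00184) and by 0.08 with the length and GC offsets. Pericytes and smooth muscle cells use both genes, and 4 of 7 markers of these cells were called higher and 0 lower, beside 15.5% and 5.08% of all genes. With the offsets 3 of the 7 were called higher, Rgs5 (0.78), Myh11 (2.13) and Tagln (0.61), beside 8.19% of all genes. Of those called without the offsets, Cspg4 was at 0.04 with them and Notch3 at -0.29. The summed count of the 7 markers was 11882 to 12287 in Kir2.1-OE libraries against 7227 to 8335 in controls, with Myh11 at 0 in a control library. Their part in the result was not tested. The mean of Kcnj8 was lower in Kir2.1-OE libraries, while the means of its partner and of the marker sum, without the offsets, were higher.

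Kcnj11 (Kir6.2, chromosome 7, 46093953 to 46100764) was measured with little spread. It had 282.3, 271.8 and 299.4 normalized counts in Kir2.1-OE libraries and 223.7, 220.8 and 202.6 in controls, and the groups did not overlap. The difference was 0.40 on the log2 scale (SE 0.123, edgeR adjusted p = 0.0228), or 1.32-fold, below the threshold. The edgeR adjusted p was 0.0507 to 0.0754 when any Kir2.1-OE library or control replicate 3 was left out. It was 0.0393 without control replicate 1, 0.0471 without control replicate 2 and 0.105 with the length and GC offsets. Its partner in neurons and endocrine cells, Abcc8 (the SUR1 receptor), lies 3758 bp away and rose. Abcc8 had 112.9, 102.9 and 150.2 normalized counts in Kir2.1-OE libraries and 67.2, 57.2 and 41.7 in controls, which is a difference of 1.14 in log2 (SE 0.246, edgeR adjusted p = 0.00425). With the length and GC offsets Kcnj11 was at 0.29 and Abcc8 at 0.70, and neither was called. Abcc8 was highest in Kir2.1-OE replicate 3, the library with the highest counts of neuronal markers, and the part of neurons in its value was not tested.

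Of the channels opened by G proteins, Kcnj3 (Kir3.1, chromosome 2, 55435970 to 55598145) was scarce and Kcnj6 nearly absent from the counts. Kcnj3 had 41.1, 38.0 and 88.9 normalized counts in Kir2.1-OE libraries and 31.1, 25.4 and 35.6 in controls. The groups did not overlap, but Kir2.1-OE replicates 1 and 2 lay within 6 counts of control replicate 3. The log2 fold change of 0.86 (SE 0.370) did not pass the test (edgeR adjusted p = 0.0775), and it was 0.35 without Kir2.1-OE replicate 3. Of 8 spiral ganglion neuron markers, 5 were called higher and 0 lower, with and without the offsets, beside 15.5% and 5.08% of all genes without them. Their summed count was 46493 in Kir2.1-OE replicate 3, 34633 and 25240.0 in the other Kir2.1-OE libraries and 19116, 21167 and 15191 in controls, with none at 0. Among the controls, Kcnj3 was highest in replicate 3, where this sum was lowest. The part of these neurons in the Kcnj3 value was not tested. An antisense noncoding gene shares 1621 bp of exon with Kcnj3, and reads of that stretch cannot be told apart without strand.

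Kcnj6 (Kir3.2, chromosome 16, 94748636 to 94997701) had 1, 2 and 2 reads in Kir2.1-OE libraries and 2, 1 and 0 in controls, and no test was made. In the control library with 0 reads, Kcnj6 could still make up 8.09e-06% of the reads, the limit that 3 counts set, which covers counting error only. The other Kir3 genes of the table, Kcnj5 and Kcnj9, did not pass the filter either. Kcnj5 had 0, 0 and 2 reads in Kir2.1-OE libraries and 2, 1 and 0 in controls, and Kcnj9 had between 1.02 and 10.3 normalized counts in the 6 libraries. Kcnj1, a kidney channel, had 1 read in control replicate 1 and 0 elsewhere. Kcnj14 (Kir2.4) and Kcnj15 (Kir4.2) were tested and not called, with log2 fold changes of -0.61 (edgeR adjusted p = 0.18) and 0.29 (edgeR adjusted p = 0.138).

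**Figure D4:**
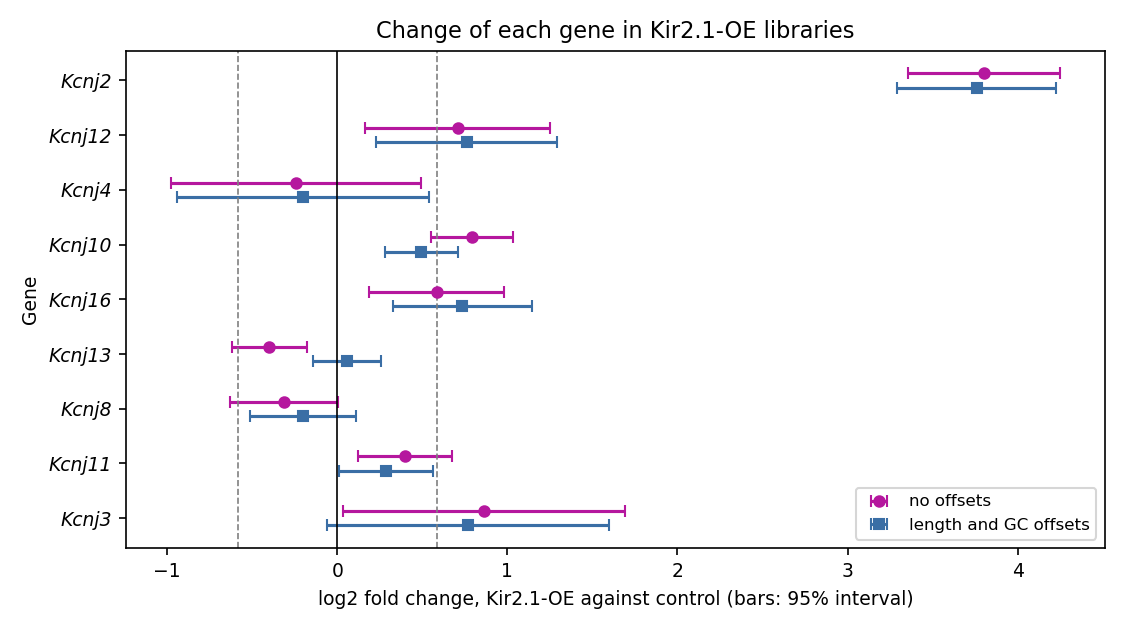
Log2 fold change of each tested member in Kir2.1-OE against control libraries with its 95% interval, without offsets (magenta circles) and with offsets for transcript length and GC content (blue squares); dashed lines mark a 1.5-fold change. Kcnj2 stays near 3.8 in both, Kcnj10 moves from 0.79 to 0.49, Kcnj16 from 0.58 to 0.73 and Kcnj13 from -0.40 to 0.058.

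The fold changes of all genes followed transcript length, and the members cover much of that range. The median log2 fold change was -0.30 over 2504 genes of 1000 to 2000 nt, the class of Kcnj13, and -0.13 over 3210 genes of 2000 to 3000 nt, which include Kcnj12, Kcnj4 and Kcnj8. It was 0.07 over 5376 genes of 3000 to 5000 nt, with Kcnj16, Kcnj11 and Kcnj6, and 0.42 over 2575 genes of 5000 to 8000 nt, with Kcnj2, Kcnj10 and Kcnj3. Kcnj2 lay far above the median of its class, Kcnj3, Kcnj10, Kcnj11, Kcnj12 and Kcnj16 also lay above theirs, and Kcnj4, Kcnj8 and Kcnj13 lay below. With the offsets, 3 members were called higher (Kcnj2, Kcnj12 and Kcnj16) and 0 lower, beside 8.19% and 2.28% of all genes. Kcnj2, to which the transgene adds its own reads, was called in every setting. Without it, 2 of 8 members were called higher with the offsets. Tested against a log2 fold change of 0.6 in place of 0, 1 member was called higher, Kcnj2, and 0 lower, beside 5.44% and 0.372% of genes. With no fold threshold, Kcnj11 and Kcnj16 joined Kcnj2, Kcnj10 and Kcnj12 for 5 members higher, and Kcnj13 was called lower, beside 27.3% and 23.5%. With a block for the replicate number, Kcnj16 took the place of Kcnj12 for 3 higher and 0 lower, beside 14.5% and 4.69%.

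Genes that work with inward rectifiers were counted over lists of their known partners, none of which had a gene called lower. Of 21 tested anchoring and sorting partners, 5 rose and 0 fell, with a median log2 fold change of 0.23 that was -0.03 with the length and GC offsets. The scaffold genes among them were Magi1 (1.31), Apba1 (1.11), Lin7a (1.02), Dlg2 (0.89) and the syntrophin Sntb2 (0.66), and Lin7a and Magi1 were called with the offsets as well. Dag1, the dystroglycan gene and the one with the highest count of the list, was at 0.36, and Aqp4, the water channel often found beside Kir4.1, was at -0.07, and neither was called. Of 13 tested G protein partners of the Kir3 channels, 3 rose (Gnao1 0.75, Rgs9 0.70 and Rgs7bp 0.67) and 0 fell, while Gnb1, with the highest count, was at -0.03. With the offsets Rgs9 alone was called.

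Inward rectifiers need the membrane lipid PIP2 to open, and 2 of 7 genes for its synthesis rose, Pip5k1c (0.71) and Pi4ka (0.69), with 0 called under the offsets. Of 8 tested two-pore potassium channels, which carry background potassium currents, 3 rose. Kcnk5 had 324.3, 266.8 and 326.9 normalized counts in Kir2.1-OE libraries and 137.4, 176.3 and 155.7 in controls, or 0.97 in log2 fold (edgeR adjusted p = 8.93e-04), and was called with the offsets too. Kcnk9 (1.61) and Kcnk6 (0.59) were called without the offsets and not with them. Kcnk1, with the highest count, was at 0.07. In each of these lists the share called higher, 23.1% to 37.5%, is to be read beside the 15.5% of all genes. With the offsets the counts were 2 of 21, 1 of 13, 0 of 7 and 1 of 8, in the order given here. All genes stood at 8.19% in that model.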

How the data were processed

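Poly(A) RNA was selected and read in pairs of 150 bases by the authors, who used the nf-core pipeline with mm10 and Salmon for quantification; versions, annotation and strand setting are not given in the sources used here. The deposited values are expected counts per gene, some of them fractional, not scaled for length or depth. The header of the file of control replicate 1 names its column as replicate 4, and the file was used under its label.

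The expected counts were rounded and tested in 1 fit of all 6 libraries with R 4.3.3 and edgeR 4.0.16: filterByExpr, TMM (factors of 0.984 to 1.01), quasi-likelihood test and Benjamini-Hochberg adjustment over 15303 genes. Genes were called at an adjusted p under 0.05 and a fold change above 1.5. Offsets were loess trends (span 0.4) of the log2 ratio of a library to the average library on length and GC content of the longest GENCODE vM21 transcript. Of 24411 symbols, 23376 matched that annotation directly and 687 through an older symbol. Libraries of a group differed by more than sampling noise (chi-square per degree of freedom 16.3 to 32.4). Alternatives were other scalings, filters and thresholds, the offsets, a replicate block, each library left out, DESeq2 1.42.0 and limma-voom (limma 3.58.1). Sequences were aligned with Biopython 1.88. Named are all members, the other Kcnj genes, called and abundant genes of the partner lists, leading markers, neighbouring genes and genes most like Kcnj2 (some genes and sequences are not reported here); Fabp7, Myh11, Mitf, Pmel, Tyrp1, Cspg4 and Notch3 were picked after their values were seen. The members and lists were chosen with earlier results of these data known.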

Additional observations from a re-analysis of the deposited data

How the results depend on the processing

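Kcnj2 was called under all 18 alternatives, with a log2 fold change of 3.64 to 4.00 when 1 library was left out. Kcnj10 was called in 15 of 18, Kcnj12 in 10 and Kcnj16 in 9. The members called higher were 2 to 4 with 1 library left out, 1 when tested against a log2 fold change of 0.6 and 5 with no fold change threshold (1 lower). Over all genes, 1254 were called higher and 349 lower with length and GC offsets, 975 and 289 with offsets and replicate block, 832 and 57 against 0.6, and 4184 and 3590 with no threshold; upper quartile scaling gave 1897 and 1378, so that 57.9% of called genes were higher against 75.2%. With 1 library left out they were 1878 to 2527 and 536 to 1074. Kcnj13 reversed to 0.058 with the offsets and 0.062 with offsets and block, and Kcnj4 ranged from -0.41 to 0.050 with 1 library left out. Kcnj2 per count of the IHC markers instead of Otof gave a log2 difference of 3.29 in place of 2.99, which was 2.88 to 3.14 with 1 library left out. In Kir2.1-OE replicate 3, Calb2 made up 21901 of the 37106 IHC marker counts. Calb2 was highest of its group in that library, while Otof, Slc17a8, Tbx2 and Atp2a3 were lowest there. Causes were not tested beyond what each setting changes. Deviations of same-numbered libraries correlated at -0.106, -0.232 and -0.213, so the replicate numbers gave no sign of pairing. As control replicate 1 also carries another replicate number, its match is uncertain, and this check does not settle pairing. With a replicate block, 2220 genes were called higher and 718 lower, Kcnj2 was at 3.77 and 3 members were called higher, with Kcnj12 lost (0.73, adjusted p = 0.0637 from edgeR) and Kcnj16 gained (0.61). Depth limits Kcnj6, Kcnj3 and Kcnj4, with few reads, more than the other members.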
